A study of Homo sapiens and Homo sapiens
Mus musculus and Mus musculus with 200 samples.

Results

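The sites described here are the peaks of V5-tagged NEUROD1 in HEK293 cells, a human embryonic kidney line, from chromatin immunoprecipitation and sequencing (ChIP-seq). A site is 1 interval of a deposited V5 peak list: 5097 sites came from cells given V5-NEUROD1 plasmid alone and 3925 from cells given V5-NEUROD1 together with an ALX4-Flag plasmid, 9022 of the 1977658 intervals in the 70 peak lists of the series. Both groups, like the cells given the empty plasmid pUC19 that serve as background (463 V5 peaks), were wild-type HEK293 cells harvested 24 h after transient transfection. Proteins were thus expressed from plasmids in a cell line that is neither neural nor mesenchymal. Each of these 3 conditions is 1 list, so no spread between replicates is available for any of them, and a difference between the NEUROD1 lists is a difference between 2 libraries. For comparison, V5-TWIST1(WT) had 3 lists without and 3 with ALX4, and 5 TWIST1 proteins labelled with a NEUROD1 segment (loop, L, M, R and ins) had 1 list each without and with ALX4, all from the same cell line. A site was called kept when it overlapped the other NEUROD1 list by at least 1 bp, lost when it was found only without ALX4, and gained when it was found only with ALX4.

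NEUROD1 is a basic helix-loop-helix (bHLH) transcription factor of differentiating neurons and pancreatic endocrine cells. It binds DNA as a dimer with a broadly expressed E protein (TCF3, TCF4 or TCF12) at short E-box sequences, which read CA, then a variable pair of bases, then TG. TWIST1 is a bHLH factor of neural crest and mesenchyme that binds E-boxes too, and ALX4 is a homeodomain factor of face and limb mesenchyme that binds sequences around TAATTA. The comparison asked how the presence of ALX4 goes along with the places where another bHLH factor is found.

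The sequences below, all read from the plus strand of hg38, were chosen to show the motifs on which the results turn. Capitals mark 3 E-boxes on either strand: CAGATG (which reads CATCTG from the opposite side), the palindrome CAGCTG and the palindrome CATATG. They also mark the homeodomain motifs TAATTA and, as its variant, TAATTG, which reads CAATTA from the opposite side. Each of the first 7 lines is 60 bases around a summit, the position of highest signal in a peak.
Kept, coding exon of KRTAP9-8, chr17:41238216-41238275: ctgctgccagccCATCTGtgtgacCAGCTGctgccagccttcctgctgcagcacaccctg
Kept, intron of TMEM91, chr19:41374154-41374213: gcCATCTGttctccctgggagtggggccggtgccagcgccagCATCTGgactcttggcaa
Lost, coding exon of KRTAP4-16, chr17:41101998-41102057: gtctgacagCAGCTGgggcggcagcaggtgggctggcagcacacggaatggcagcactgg
Lost, intron of KIF19, chr17:74333076-74333135: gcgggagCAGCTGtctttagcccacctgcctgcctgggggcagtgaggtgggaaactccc
Gained, intron of VAV3, chr1:107692708-107692767: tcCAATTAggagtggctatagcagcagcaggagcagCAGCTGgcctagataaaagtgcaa
Gained, intron of CFAP20, chr16:58121932-58121991: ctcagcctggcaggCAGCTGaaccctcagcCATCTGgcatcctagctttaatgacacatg
Gained, intron of AUTS2, chr7:70575144-70575203: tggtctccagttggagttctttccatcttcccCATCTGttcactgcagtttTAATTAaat
Pair 6 bp apart, intron of CELF2, chr10:11213312-11213351: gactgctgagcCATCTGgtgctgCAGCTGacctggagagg
Pair 6 bp apart, intron of CHRNB4, chr15:78672050-78672089: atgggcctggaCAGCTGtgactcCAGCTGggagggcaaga
E-box 4 bp from a homeodomain motif, intron of BACH1, chr21:29300332-29300371: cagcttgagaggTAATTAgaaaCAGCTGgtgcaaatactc

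Transfected plasmids can themselves appear as peaks over the coding exons of the gene they carry. Peaks lying by at least 80% in coding sequence were counted. In both NEUROD1 lists the coding exon of NEUROD1 held such a peak, wholly within coding sequence. Without ALX4 it spanned chr2:181677980-181678661, with a fold enrichment of only 1.58 but a -log10 p of 157, and with ALX4 it had a fold enrichment of 1.39 and a -log10 p of 101.1 (both the authors' values for the peak). Neither pUC19 nor any TWIST1(WT) list had a peak of this kind there, and of the segment lists 1 did, TWIST1(NEUROD1ins) with ALX4, with a -log10 p of 4.77. Over the coding exons of ALX4, all 3 TWIST1(WT) lists labelled with ALX4 had 1 to 3 peaks, with -log10 p up to 134, 590 and 1360, and so did 4 of the 5 segment lists labelled with ALX4. The NEUROD1 list labelled with ALX4 had 0, as did the TWIST1(NEUROD1 loop) list labelled with ALX4 and every list labelled without it. In 4 lists without ALX4 (TWIST1(WT) replicates 1 and 3, NEUROD1R and NEUROD1ins), a peak over an ALX4 coding exon lay 52.3% to 72.4% in coding sequence and was not counted, with -log10 p of 6.83 to 7.74. A peak in the coding sequence of TWIST1 was absent from TWIST1(WT) replicate 1 and TWIST1(NEUROD1 loop), both with ALX4. Every other list of a TWIST1 protein had one. The V5 peaks go with the NEUROD1 label of both lists but give no check of the ALX4 label, and the amount of ALX4 in those cells is not measured here. The peak over the NEUROD1 coding exon is counted among the sites below but is not read as binding.

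Fewer than 4 in 10 NEUROD1 sites were found in both conditions. Of the 5097 sites without ALX4, 1475 (28.9%, Wilson 95% interval 27.7 to 30.2) were kept and 3622 (71.1%) were lost. Of the 3925 sites with ALX4, 1473 (37.5%, 36.0 to 39.1) overlapped the other list and 2452 (62.5%) were gained. Intervals of this kind, here and below, cover counting error only. Kept sites were the stronger ones: their median fold enrichment was 5.34 without ALX4 against 4.33 at lost sites, and 4.49 with ALX4 against 3.58 at gained sites. A lost or gained site can lie just below the threshold of the other list (-log10 q of about 1.3), since signal outside called peaks was not measured. Among kept sites, summits in both conditions lay a median of 53 bp apart.

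**Figure D1:**
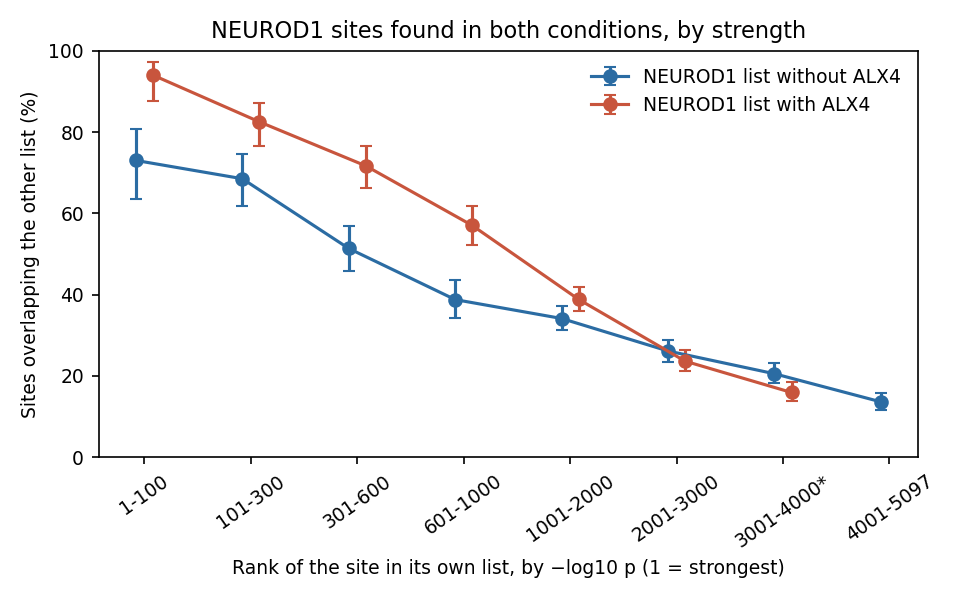
Share of NEUROD1 sites that overlap the other NEUROD1 list (vertical axis, percent) by rank in their own list (horizontal axis, rank 1 has the highest -log10 p; the bin marked with an asterisk ends at rank 3925 in the list with ALX4). Points are shares and bars Wilson 95% intervals; the share falls from 73.0% to 13.6% without ALX4 and from 94.0% to 15.9% with ALX4.

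The plot of sites shared by strength shows how far this depended on rank. Of the 100 strongest sites with ALX4, 94.0% (87.5 to 97.2) were also sites without it. Of the 100 strongest sites without ALX4, 73.0% (63.6 to 80.7) were also sites with it. At the weak end, 13.6% of the sites ranked beyond 4000 without ALX4 and 15.9% of those ranked beyond 3000 with ALX4 had a partner. The lists differ in length and in pUC19 sites. With pUC19 sites removed and both lists limited to the strongest 3757 sites, the shares were 90% (82.6 to 94.5) with ALX4 and 69% (59.4 to 77.2) without it.

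TWIST1(WT), which had replicates, gives a measure of how much lists differ within 1 condition. With peaks that overlapped pUC19 removed and the 1000 strongest peaks of each list compared, 40% (37.0 to 43.1) of NEUROD1 sites without ALX4 overlapped those with ALX4. Between TWIST1(WT) replicates of the same condition the share was 50.6% to 71.0% over 6 pairs. Between TWIST1(WT) lists without and with ALX4 it was 19.4% to 26.6% over 9 pairs. The NEUROD1 lists differed by more than any pair of TWIST1(WT) replicates and by less than any pair of TWIST1(WT) lists that differed in ALX4. The same order held at 3757 peaks a list, with 32.5% for NEUROD1, 49.9% to 69.4% for replicates and 21.9% to 30.0% across conditions. Equal counts reached unlike depths in the lists. The 3757 sites were the whole NEUROD1 list with ALX4 outside pUC19 peaks, down to its threshold, whereas TWIST1(WT) lists held 22465 to 65005 peaks. Sites of low rank in the NEUROD1 lists had fewer partners, and the part of this in the order was not tested. In the 5 proteins with a NEUROD1 segment, 43.6% to 52.0% of the 1000 strongest peaks without ALX4 overlapped those with it, above the NEUROD1 value. How much 2 NEUROD1 libraries of the same condition would differ was not measured.

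Few sites coincided with peaks of cells that received no V5-tagged protein. Of the sites without ALX4, 120 (2.35%, 1.97 to 2.81) overlapped a pUC19 peak, and of those with ALX4, 168 (4.28%, 3.69 to 4.96). The strongest background peaks recurred nonetheless: of the 20 strongest pUC19 peaks, 19 were in the list without ALX4 and 20 in the list with it. Kept sites overlapped pUC19 more often (5.69%) than lost sites (0.994%). Windows of pUC19 peaks held CACATG in 38.4% and CACGTG in 23.5%, and the E-boxes CAGATG or CAGCTG in 20.3%, close to the 22.1% of windows 1000 bp away. CATATG was in 11.7% of the pUC19 windows, against 3.02% of windows 1000 bp away.

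NEUROD1 sites were rich in CAGATG and CAGCTG and, at fewer sites, in CATATG. In windows reaching 100 bp to either side of the summit, CAGATG was present at 39.7% of sites without ALX4 against 13.0% of windows placed 1000 bp to either side, and CAGCTG at 42.0% against 9.48%. Sites with ALX4 held CAGATG in 30.4% and CAGCTG in 33.4%. Either E-box was found at 67.2% of all sites without ALX4 and at 54.7% with ALX4. The strongest sites nearly all had one: among the 1000 strongest, the share was 91.8% (89.9 to 93.3) without ALX4 and 83.2% (80.8 to 85.4) with it. These 2 E-boxes lay near the summit, a median of 28.5 bp from it without ALX4 against 43.5 bp in the flanking windows. CATATG was at 11.6% of sites without ALX4 against 3.69% of flanking windows, and at 7.03% against 3.62% with ALX4.

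**Figure D2:**
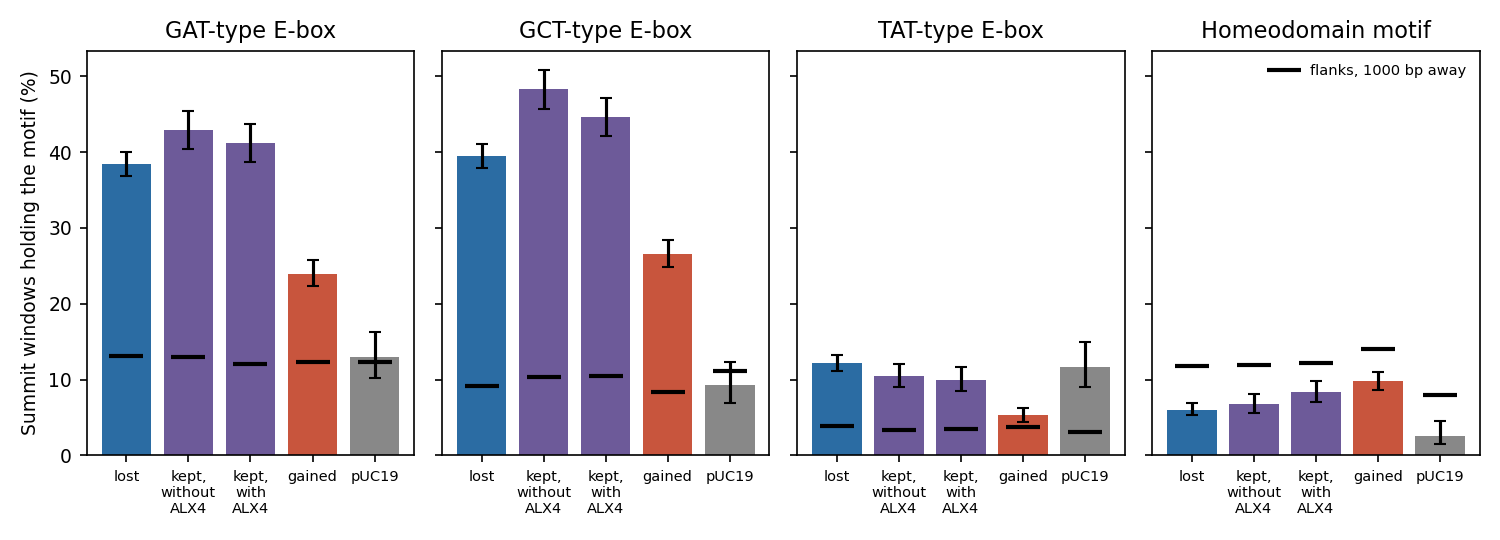
Share of summit windows holding each motif (vertical axis, percent) in lost, kept and gained NEUROD1 sites and in pUC19 peaks; GAT-type stands for CAGATG, GCT-type for CAGCTG and TAT-type for CATATG, and the homeodomain motif is TAATTA or TAATTG. Bars are shares with Wilson 95% intervals and black dashes the windows 1000 bp away; gained sites hold fewer E-boxes (24.0% CAGATG, 26.6% CAGCTG) than kept or lost sites.

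Kept, lost and gained sites differed in these motifs. CAGATG or CAGCTG was present at 74.9% (72.6 to 77.1) of kept sites at summits without ALX4 and 71.2% (68.9 to 73.5) at summits with ALX4. Either E-box was at 64.0% (62.4 to 65.5) of lost sites and 44.8% (42.9 to 46.8) of gained sites. The flanks of these classes held one in 19.4% to 21.6%. More than 1 such E-box was found in 32.0% of kept sites (summits without ALX4), 27.5% of lost and 11.3% of gained sites. Gained sites had a lower -log10 p, so lost and gained sites were also compared within 1 range of the authors' -log10 p, from 10 to 20. Sites overlapping pUC19 were left out (1001 lost sites, median 13.2, and 327 gained sites, median 12.3). These values come from 2 libraries of unknown depth, so a shared range does not make lost and gained sites equal in strength. There either E-box was at 84.3% (81.9 to 86.4) of lost and 78.6% (73.8 to 82.7) of gained sites. The ends of these intervals overlapped, which does not show that the shares were alike, and the difference was not tested. CAGATG was at 54.5% and 46.5% of these lost and gained sites, and CAGCTG at 52.2% and 46.2%. CATATG differed by more, at 19.5% (17.1 to 22) of lost and 8.56% (5.99 to 12.1) of gained sites, and at 9.76% (7.44 to 12.7) of kept sites of that range with ALX4.

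The homeodomain motif TAATTA or TAATTG was more frequent among gained than among lost sites. Over all sites it was present at 6.02% (5.29 to 6.84) of lost and 9.75% (8.64 to 11.0) of gained sites, both below their flanks (11.8% and 14.1%), where the sequence is richer in A and T. Kept sites with ALX4 had it at 8.35% (7.04 to 9.87), with an interval that overlapped that of gained sites, and this difference was not tested. In the same range of -log10 p, from 10 to 20, it was present at 19.3% (15.4 to 23.9) of gained, 7.19% (5.75 to 8.96) of lost and 10.4% (7.97 to 13.4) of kept sites with ALX4. The mean G+C content there was 54.9% in both gained and lost windows. Among the 100 strongest gained sites it was present at 25% (17.5 to 34.3), against 3% (1.03 to 8.45) of the 100 strongest lost sites and 15% (9.31 to 23.3) of the 100 strongest kept sites with ALX4. The flanks of those gained and lost sites held it in 15% and 12%. These 100 strongest were not alike in strength, with a median -log10 p of 18.3 for gained and 36.8 for lost sites, nor in G+C content (50.7% and 55.1%), whose part in the difference was not tested. The gained site in the VAV3 intron shown above is an example, with 2 E-boxes and 2 homeodomain motifs in its window.

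**Figure D3:**
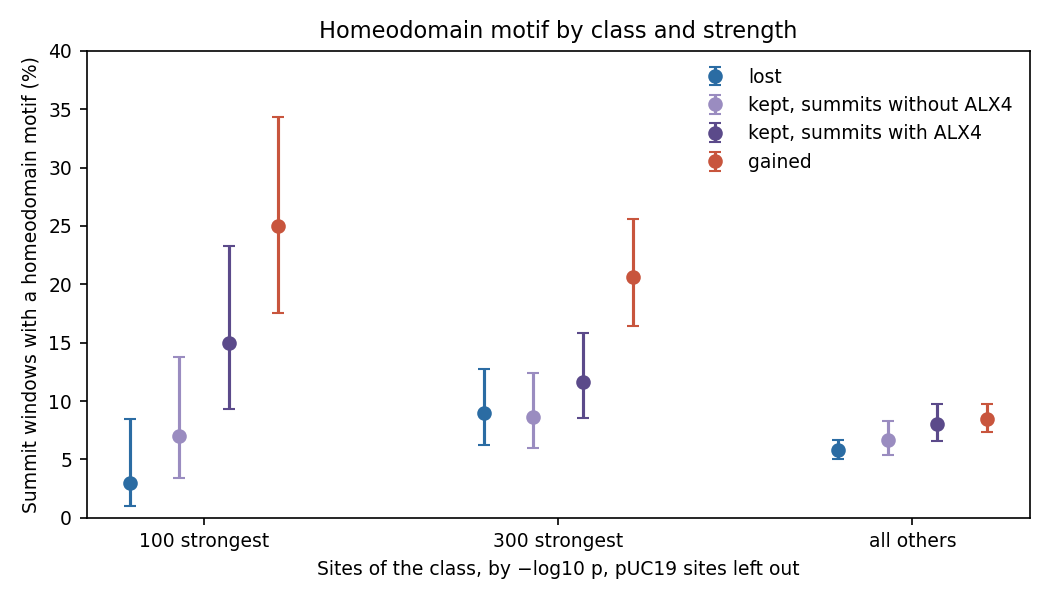
Share of summit windows holding TAATTA or TAATTG (vertical axis, percent) among the 100 strongest, the 300 strongest and all sites beyond the 300 strongest of each class (horizontal axis), pUC19 sites left out. Points are shares and bars Wilson 95% intervals; gained sites stand at 25%, 20.7% and 8.45%, and lost sites at 3%, 9% and 5.81%.

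TWIST1(WT) showed a larger difference in the same measure. Among the 1000 strongest peaks, the homeodomain motif was found at 9.30%, 10.1% and 7.80% in the 3 lists without ALX4 and at 29.9%, 27.3% and 25.2% in the 3 lists with ALX4. These groups did not overlap, and the difference of means was 18.4 percentage points (two-sided exact permutation test, p = 0.10, the smallest that 3 against 3 lists can give; adjusted p = 0.117 over 7 motifs). For NEUROD1 the shares were 8.30% (6.75 to 10.2) without and 13.1% (11.1 to 15.3) with ALX4, a difference of 4.80 percentage points. NEUROD1 with ALX4 thus lay above all 3 TWIST1(WT) lists without ALX4 and below all 3 with it. Windows 1000 bp away from these NEUROD1 sites held the motif in 12.2% without and 12.95% with ALX4. The NEUROD1 share with ALX4 was thus near that of its flanks, and the share without ALX4 was below its flanks. CACCTG, the E-box of E-protein and SNAI-type factors, was found at 24.2% of the 1000 strongest NEUROD1 sites without ALX4 and 22.2% with it.

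In the TWIST1(WT) lists, the arrangement of an E-box exactly 4 bp from a homeodomain motif was at 0.800% ± 0.100 of the 1000 strongest peaks without ALX4 and at 4.10% ± 0.624 with it (mean ± SD, n = 3; exact permutation test, p = 0.10, the smallest possible). Among the 1000 strongest NEUROD1 sites it was found at 0 without ALX4 and at 0.100% with ALX4. Over the complete NEUROD1 lists it was present at 5 sites without and 6 sites with ALX4. Gaps from 0 to 20 bp each gave 1 to 8 sites in either list, so the gap of 4 bp did not stand out. The 8 places with this arrangement were mostly weak. The strongest with ALX4 was the one in the BACH1 intron shown above, a kept site with fold enrichment 5.72 without and 6.50 with ALX4 that overlapped all 6 TWIST1(WT) lists. Others lay in an intron of LRRC3C (kept, 2.93 and 3.55), 405 bp upstream of TANC1 (kept, 4.02 and 3.57), in an intron of NEBL (gained, 4.98), near SCOC (gained, 4.36), near HHIPL2 (lost, 3.96), in an exon of MCM9 (lost, 7.27) and far downstream of UQCRFS1 (kept, 2.92 and 3.96).

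Pairs of E-boxes were spaced differently for NEUROD1 and TWIST1. Counting the E-boxes marked in the sequences above, a pair separated by 6 bp was found at 127 of the 5097 sites without ALX4 (2.49%) and at 10 of 10194 flanking windows (0.0981%). No other gap from 0 to 20 bp reached more than 1.29% of these sites. Among the 1000 strongest sites it was present at 6.60% without and 2.50% with ALX4, against 0.300% to 0.700% in the 3 TWIST1(WT) lists without ALX4 and 0.200% to 0.300% in those with ALX4. TWIST1(WT) without ALX4 had its own preferred gap, 5 bp, at 6.70% to 7.30% of its strongest peaks, where NEUROD1 had 2.90%. With ALX4 the 5 bp pair was at 0.700% to 1.00% of the strongest TWIST1(WT) peaks.

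**Figure D4:**
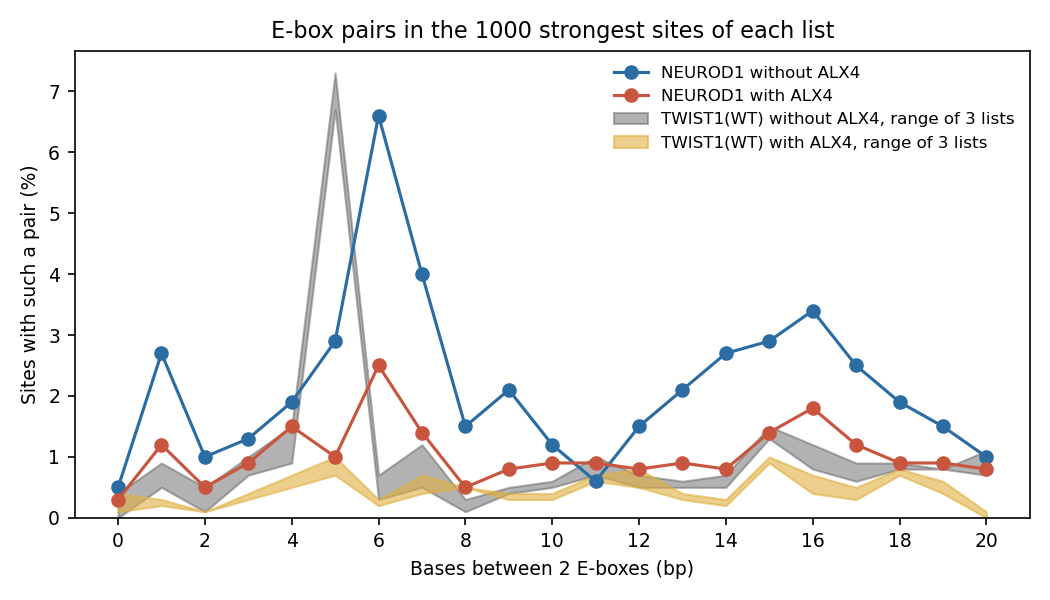
Share of the 1000 strongest sites of a list (vertical axis, percent) holding 2 E-boxes separated by the number of bases on the horizontal axis. Lines are the single NEUROD1 lists and bands the lowest to highest of 3 TWIST1(WT) lists; NEUROD1 without ALX4 peaks at 6 bp (6.60%) and TWIST1(WT) without ALX4 at 5 bp (6.70% to 7.30%).

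The 127 sites with the 6 bp pair held 114 different 6 bp spacers, the most frequent of which occurred 8 times, and 9 of the sites lay in the keratin-associated protein cluster described below. Without that cluster, 2.33% of sites had the pair. Of the 127 sites, 51 (40.2%) overlapped no TWIST1(WT) list, against 13.3% of all NEUROD1 sites without ALX4. Of the 127, 34 (26.8%) were kept, beside 28.9% of all sites without ALX4. The median fold enrichment of the 127 was 7.21 against 4.52 in the whole list. Kept shares in that list rose from 13.6% at the weakest ranks to 73.0% of the 100 strongest, and sites of like strength were not compared. With ALX4, 31 of 39 sites with the pair (79.5%) were kept, beside 37.5% of all sites. Gained sites had the pair in 8 cases (0.326%). In the introns of CELF2 (fold enrichment 20.9, in 0 TWIST1(WT) lists) and CHRNB4 (12.9), whose sequences are shown above, pairs of this kind lay at kept sites.

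The complete TWIST1(WT) lists overlapped 44.2% to 77.9% of NEUROD1 sites without ALX4, and at matched length the lists with ALX4 held fewer of them. Because the TWIST1(WT) lists ranged from 22465 to 65005 peaks, the 8000 strongest peaks of each were used for comparison. These overlapped 36.6%, 31.9% and 34.0% of NEUROD1 sites without ALX4 in the 3 TWIST1(WT) lists without ALX4, and 17.3%, 16.5% and 19.3% in the 3 lists with ALX4. The groups did not overlap (difference of means -16.5 percentage points, two-sided exact permutation test p = 0.10, the smallest possible; adjusted p = 0.20 over 16 comparisons). NEUROD1 sites with ALX4 gave 35.4%, 29.2% and 32.2% against 19.8%, 17.9% and 21.2%. With complete lists the means were 66.9% ± 10.8 and 54.6% ± 11.6 (SD, n = 3) for NEUROD1 sites without ALX4, and the groups overlapped (exact permutation test, p = 0.30). For NEUROD1 sites with ALX4 the complete lists gave 63.5% ± 10.8 and 57.6% ± 10.9 (exact permutation test, p = 0.60).

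**Figure D5:**
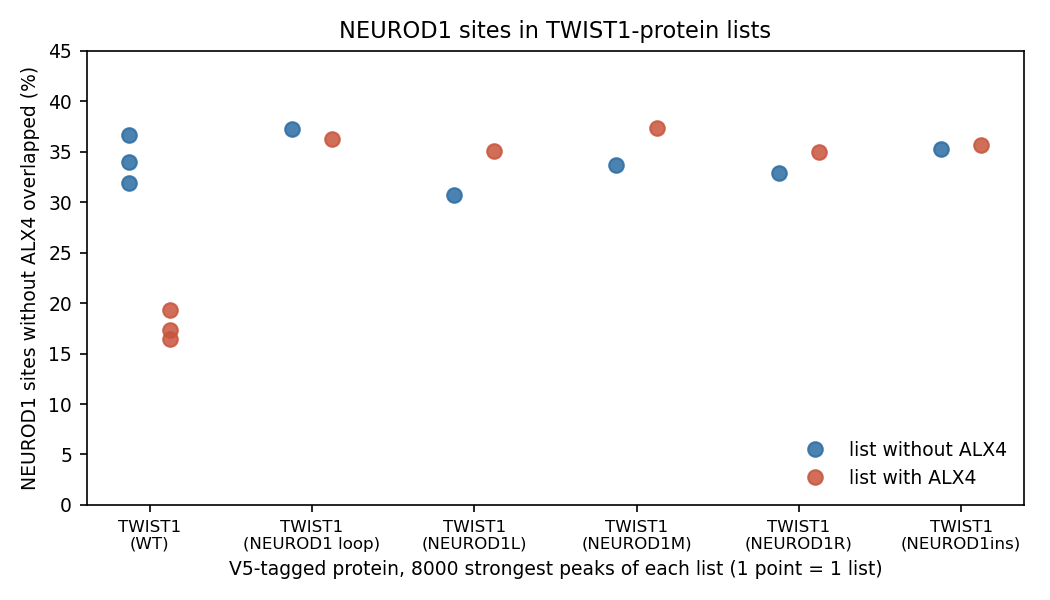
Share of the 5097 NEUROD1 sites without ALX4 (vertical axis, percent) overlapped by the 8000 strongest peaks of each V5 list of TWIST1(WT) and of 5 TWIST1 proteins labelled with a NEUROD1 segment (horizontal axis); each point is 1 list. TWIST1(WT) with ALX4 stands at 16.5% to 19.3%, and every other list between 30.7% and 37.4%.

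At the 8000 strongest peaks, TWIST1 proteins labelled with a NEUROD1 segment gave like values without and with ALX4. Without ALX4 their 8000 strongest peaks overlapped 30.7% (NEUROD1L) to 37.2% (NEUROD1 loop) of NEUROD1 sites without ALX4, beside 31.9% to 36.6% for TWIST1(WT). With ALX4 the values were 36.3% for NEUROD1 loop, 35% for NEUROD1L, 37.4% for NEUROD1M, 34.9% for NEUROD1R and 35.7% for NEUROD1ins. At this length all 5 lay above all 3 TWIST1(WT) lists with ALX4. With complete lists, of 8559 to 26878 peaks, values without and with ALX4 were less alike. They were 50.1% and 38.8% for NEUROD1 loop, 57.7% and 36.6% for NEUROD1L, and 38.8% and 47.4% for NEUROD1M. NEUROD1R gave 47.7% and 62.7%, and NEUROD1ins 60.1% and 63.6%. All 5 with ALX4 then lay below the highest TWIST1(WT) list with ALX4 (67.2%), and NEUROD1 loop and NEUROD1L below the lowest (44.2%). Each protein had a single list per condition, so none of these differences has a replicate check of its own.

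Kept, lost and gained sites differed in how often TWIST1(WT) was found there. Without ALX4, the 8000 strongest TWIST1(WT) peaks overlapped 50.0% ± 4.61 of kept sites, 27.7% ± 1.5 of lost sites and 21.7% ± 2.13 of gained sites (SD, n = 3 lists). With ALX4 the shares were 27.6% ± 1.97, 13.7% ± 1.23 and 14.9% ± 1.62. Among the 300 strongest of each class they were 34.7% ± 3.18 and 14.7% ± 1.86 for lost sites, and 35.4% ± 3.34 and 28.2% ± 4.25 for gained sites, without and with ALX4. For the 300 strongest gained sites the sign depended on list length: the difference with minus without ALX4 was -7.22 percentage points with the 8000 strongest TWIST1(WT) peaks and 5.67 with complete lists (exact permutation tests, p = 0.10 and 0.60). At -log10 p from 10 to 20, TWIST1(WT) with ALX4 (8000 strongest) overlapped 20.2% to 26.9% of gained and 14.6% to 17% of lost sites. TWIST1(WT) without ALX4 overlapped 32.7% to 38.5% of gained and 31.9% to 33.6% of lost sites there. The lower share of gained than of lost sites seen over all sites without ALX4 was thus absent in this range. The wild-type human cranial neural crest cells (0 h dTAG, labelled TWIST1, not V5) had 42318 peaks found in both replicates. These overlapped 40.2% (37.7 to 42.7) of kept, 25.8% (24.4 to 27.3) of lost and 21.7% (20.1 to 23.3) of gained sites. Kept sites were stronger, with a median -log10 p of 12.6 against 7.97 at lost sites without ALX4. With ALX4 it was 10.6 at kept against 6.32 at gained sites. In these overlaps, kept sites were not compared with the other classes at like strength.

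Sites without any TWIST1(WT) peak made up 13.3% (678) of the list without ALX4 and 15.3% (599) of the list with it. Those without ALX4 were rich in CATATG, present at 20.9% (18.0 to 24.2) of them against 8.66% (7.31 to 10.2) of the 1444 sites found in all 6 TWIST1(WT) lists. CAGATG was also more frequent there, at 51.9% (48.2 to 55.7) against 38.9% (36.4 to 41.4), while CAGCTG was not (41.0% and 43.7%). Only 9% of these 678 sites were kept, against 44.4% of the 1444. Their median fold enrichment of 4.78 was no lower than the 4.65 of the sites in all 6 lists. The 599 sites with ALX4 differed, with CATATG at 8.18% and CAGCTG at 20.2%. Sites that overlapped pUC19 peaks were not left out of these groups, and CATATG was in 11.7% of pUC19 windows.

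The strongest sites without ALX4 were concentrated in 1 gene cluster. In chr17:40983430-41325710, which holds 34 keratin-associated protein (KRTAP) genes encoding matrix proteins of hair, there were 27 sites without ALX4 and 12 with ALX4, all 12 shared between the lists. They included 14 of the 50 strongest sites without ALX4 and 0 of the 50 strongest with it. Median fold enrichment was 18.5 without and 6.93 with ALX4. The pUC19 list had 0 peaks in this cluster, and the 6 TWIST1(WT) lists had 2 to 12. All 27 summit windows held CAGATG or CAGCTG, on average 4.22 of them, and 23 of the sites lay within 1 kb of a start site. The genes are members of 1 family, so the assignment of reads among similar copies may be uncertain, which was not measured. The highest fold enrichment was at a kept site in the coding exon of KRTAP9-8 (chr17:41237522-41238584, 47.0 without and 12 with ALX4). A kept site in the coding exon of KRTAP9-3 had 39.5 and 7.75 (chr17:41232240-41233324), and the strongest lost site, in the coding exon of KRTAP4-16, had 38.9 (chr17:41101675-41102469).

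Among the other strong kept sites, the one with the closest values in both lists lay in an intron of ATOH8, which encodes another bHLH factor (chr2:85772042-85772940, fold enrichment 31.4 without and 22.8 with ALX4). It overlapped all 6 TWIST1(WT) lists and was the strongest site of either list to do so among those outside pUC19 peaks. A site in an intron of RAB31 (chr18:9847967-9848659) had a fold enrichment of 32.1 without and 10.1 with ALX4 and held 9 copies of CAGATG in its window. Kept sites in an intron of TMEM91 (chr19:41373882-41374870, 22.5 and 10.7) and between genes 57645 bp from ATXN3L (chrX:13376183-13378006, 24.7 and 14) each held 2 copies of CAGATG. Fold enrichment at these sites was lower with ALX4 in each case, as it was at 66.1% of all kept sites, but the depth and background of the libraries are unknown and the values are not on 1 scale.

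Strong lost sites outside the KRTAP cluster lay in an intron of KIF19, a kinesin gene (chr17:74332796-74333429, fold enrichment 20.7), 58793 bp from SPAG9 (chr17:50934587-50935641, 18.9) and between genes on chr19:35088260-35088962 (13.1). None of these 3 overlapped a TWIST1(WT) list with ALX4, and the last overlapped all 3 without it. Strong gained sites had lower values. They lay in introns of VAV3, a guanine nucleotide exchange factor gene (chr1:107692503-107693081, 11.2), CFAP20 (chr16:58121615-58122203, 8.66) and PDZRN4 (chr12:41365750-41366212, 12.4), between genes 171930 bp from SP8 (chr7:20958602-20959138, 11.7), and on chromosome 8 at 119322 bp from PEX2 (11.7). The VAV3 site overlapped 0 TWIST1(WT) lists without and 3 with ALX4. The CFAP20 site overlapped all 6, and the site near SP8 none.

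Many sites lay at promoters. Within 1 kb of a protein-coding start site lay 39.2% of sites without and 43.2% with ALX4. Strong sites were less often there: 29% of the 100 strongest and 50.8% of those ranked beyond 4000 without ALX4. Summits fell in introns at 42.8% and 42.5% of sites, between genes at 36.1% and 34.4%, in untranslated regions at 12% and 13.7% and in coding exons at 7.06% and 7.11%. Of 19663 protein-coding genes, 3221 (16.4%) had a site within 10 kb of a start site without ALX4, 2785 (14.2%) with ALX4 and 1327 (6.75%) in both lists. The lists of genes below are counted against these shares, and no test was made of any list.

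Of 38 genes of the neuronal programme, 13 (34.2%) had a site without ALX4, 15 (39.5%) with it and 12 in both. Of all protein-coding genes, 16.4% and 14.2% had one. The counts include NEUROD1, RBFOX3, MYT1 and, without ALX4, ELAVL2. Their sites were the peak over the plasmid-borne coding exon or overlapped a pUC19 peak. NEUROD2, a paralog of NEUROD1, had a kept site at its start site (fold enrichment 10.8 without and 6.13 with ALX4). HES6, a promoter of neuronal differentiation, had one 320 bp away (8.37 and 7.43), and NHLH2, a neuronal bHLH gene, one of 4.44 and 4.36. DLL1 and DLL3, Notch ligand genes switched on by proneural factors, had kept sites of 6.48 and 5.29 and of 9.94 and 4.75. SOX4, a gene of the neuronal SOXC group, had a kept site of 10.6 and 4.19. EBF2 had a kept site of 3.78 and 4.12 and a lost one of 7.14, and EBF1 a lost one of 5.74 and a gained one of 3.20. GADD45G had a lost site of 6.00 and a gained one of 2.94, and BTBD17 a lost one of 3.12. INSM1 (4.37) and EBF3 (4.29) had gained sites. ELAVL2, which encodes a neuronal RNA-binding protein, had 2 gained sites (4.41 at 498 bp from the start site, and 3.25) beside a kept site that overlapped a pUC19 peak. RBFOX3 and MYT1 had sites that overlapped pUC19 peaks, as did a second SOX4 site, and the NEUROD1 site is the peak over the plasmid-borne coding exon. At or just upstream of the start site of NEUROD1 itself, every TWIST1(WT) list had a peak (fold enrichment 18.1 in replicate 3 without ALX4), but neither NEUROD1 list had one.

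Of the 22 pancreatic endocrine genes, 5 (22.7%) had a site without ALX4 and 1 (4.55%) with it. The shares of all genes were 16.4% and 14.2%. NKX2-2, a homeodomain gene of endocrine and ventral neural progenitors, had the kept site (9.10 and 6.66). Lost sites were found at ISL1 (6.22 and 5.03), CHGB (4.30) and PCSK1 (3.57). INS and PAX6, long-known genes of the endocrine programme, had no site within 10 kb in either list.

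Of 23 Notch pathway genes, 9 (39.1%) had a site without ALX4, 5 (21.7%) with it and 3 in both (DLL1, DLL3 and HES6). All genes stood at 16.4% and 14.2%. HEYL (12.5) and HES1 (7.99), which encode repressors downstream of Notch, had the strongest lost sites, each overlapped by all 3 TWIST1(WT) lists without ALX4 and 2 with it. Lost sites were also found at RBPJ (5.05), the DNA-binding partner of the Notch intracellular domain, JAG1 (4.12 and 3.11), HEY2 (3.87) and NOTCH1 (2.97). MAML3 (4.09) and HEY1 (4.32) had gained sites.

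Among 7 genes for dimer partners and inhibitors of bHLH factors, 5 (71.4%) had a site without and 5 (71.4%) with ALX4, 4 of them in both. Over all genes the shares were 16.4% and 14.2%. TCF3 had a kept site of 6.52 and 6.34. At TCF4 the kept site had a fold enrichment of 2.80 without and 9.75 with ALX4, opposite to most kept sites. ID2 had 2 kept sites (2.90 and 3.27; 3.72 and 3.72), a lost one of 5.77 and a gained one of 5.02. ID3 had 1 lost and 2 gained sites, ID1 2 gained sites and ID4 1 lost site. Of 24 genes of neural crest and craniofacial mesenchyme, 5 had a site without ALX4, 4 with it and 1, SNAI2, in both (6.24 and 4.09). TFAP2A (5.49), ZEB1 (4.48), PAX3 (4.40) and TWIST1 (3.14) had lost sites, and PRRX1 (5.42), SNAI1 (3.51) and DLX2 (3.31) gained ones. These shares of 20.8% and 16.7% were near those of all genes.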

How the data were processed

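V5 ChIP-seq peak lists of transfected HEK293 cells were used as deposited. The submitters' processing notes name Bowtie2 2.4.1, SAMtools 1.10, MACS2 2.2.7.1 and deepTools 3.5.0. Which control and settings went into peak calling is not stated in those notes or in the labels. The genome is hg38, per the labels. The lists have no header; by the standard column order the authors deposited for each peak a whole-number score, a fold enrichment (ratio), a −log10 p and a −log10 q, the lowest −log10 q being 1.31 without and 1.30 with ALX4. The authors' fold and −log10 values were used to describe and rank peaks within a list, and −log10 p to set 1 range for both NEUROD1 lists. Read depth is unknown, and replicates were not pooled.

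From these lists, repeated intervals were merged to 1 site with the summit of highest −log10 p. An overlap was at least 1 bp (agreeing with bedtools 2.31.1 on 1475 kept sites). Motifs were searched on both strands within 100 bp of summits and in equal windows 1000 bp to either side. Sites were annotated with GENCODE 44; a nearest gene is the protein-coding gene with the nearest start site. Intervals are Wilson 95% intervals (scipy 1.17.1 for exact permutation tests, two-sided, over the TWIST1(WT) lists). The labels do not say whether those lists come from separate cultures, so p-values measure only the spread between them. Overlap and motif code was tested on simulated data.

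Named sites were the 8 kept sites with the highest −log10 p among those also among the strongest with ALX4 (−log10 p of at least 17.8), the 5 strongest lost and gained sites, none overlapping pUC19, all E-boxes 4 bp from a homeodomain motif, and listed genes with a site within 10 kb; for brevity not every such site is described. Some listed genes are not reported here. The AUTS2 site and the sites with 6 bp pairs were picked after their values were seen. The members and the gene lists were chosen with earlier results of these data known. Alternatives were reciprocal overlap, −log10 q of at least 5, the 2000 strongest peaks, 50 bp either side of summits, no pUC19 peaks, other gene distances and leaving out each TWIST1(WT) list. The comparisons of 1000, 3757 and 8000 strongest peaks, the strength classes, the range of −log10 p from 10 to 20 and the E-box pairs were chosen after seeing the data.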

Additional observations from a re-analysis of the deposited data

How the results depend on the processing

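The kept share without ALX4 was 23.1% with reciprocal overlap of 50% and 37.4% among the 2000 strongest peaks (28.9% as reported). With ALX4 it was 30.0% with reciprocal overlap and 53.1% at a −log10 q of at least 5 (37.5%). The pUC19 share was 1.63% with reciprocal overlap and 1.73% at the stricter q without ALX4; with ALX4 it was 2.96%, 5.76% and, among the 2000 strongest, 5.85%. The E-box share was 48.0% without and 36.1% with ALX4 within 50 bp of summits, 84.1% and 77.6% at the stricter q, and 87.5% and 71.1% among the 2000 strongest. The homeodomain share was 3.1% and 4.51% within 50 bp of summits, 7.44% and 12.4% at the stricter q, and 8.25% and 11.4% among the 2000 strongest. E-boxes were thus more frequent without ALX4, and homeodomain motifs with it, under all 3. Genes with a site numbered 6493 and 5688 within 50 kb, 2123 and 1846 within 1 kb, and 1517 and 965 at the stricter q. Leaving out 1 TWIST1(WT) list moved the difference in TWIST1 overlap between -18.6 and -6.78 percentage points for sites without ALX4 and between -12.0 and -0.561 for sites with ALX4. In the replicate block of replicates 2 and 3, whose numbers alone the labels give, the differences were -7.37 and -1.31 percentage points. That the samples of 1 number belong together was not tested. Over all NEUROD1 sites of a list, no difference in TWIST1 overlap changed sign under these alternatives. At -log10 p from 10 to 20 without pUC19 sites, a range chosen after seeing the data, the E-box share was 84.3% of lost and 78.6% of gained sites (64.0% and 44.8% over all), and the homeodomain share 7.19% and 19.3% (6.02% and 9.75%). Single lists per NEUROD1 condition and an unknown depth limit every comparison of kept, lost and gained sites.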
